A study of Mus musculus with 12 samples.

Results

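The 10 genes described here mark radial glia and astrocytes. They are *Fabp7*, *Slc1a3*, *Slc1a2*, *Gfap*, *Aqp4*, *Aldh1l1*, *Aldoc*, *S100b*, *Glul* and *Gja1*. They were chosen by name, as known markers, at a time when earlier results of these data were known, and each symbol was matched to its Ensembl identifier in the deposited count table. All 10 were found among 45706 identifiers, of which 45143 carried a symbol. All 10 were also among the 17003 genes tested, *Aqp4* only through the libraries labelled NSC and NR, since it had at most 1 count in an NPC library and at most 4 in an NPC(+) library.

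Radial glia are the elongated progenitors of the developing brain, and many astrocytes descend from them. Both cell types carry *Fabp7* and *Slc1a3*, whereas *Gfap*, *Aqp4*, *Slc1a2*, *Aldh1l1* and *S100b* are used as markers of astrocytes as they mature. *Sox1* encodes a transcription factor of the neuroepithelium, the epithelial stem cell layer from which radial glia form.

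The series holds RNA-seq libraries of 4 groups, 3 libraries each, of cultured mouse cells, all of the strain label C57BL/6 and derived from embryonic stem cells that carry GFP in a heterozygous knock-in at *Sox1*. NPC, labelled Baseline, were glial progenitors negative for *Sox1* that the labels give as unsorted. NPC(+), labelled Sox1posGP, were sorted glial progenitors positive for *Sox1*, obtained by directing dCas9-VP64, a nuclease-dead Cas9 with an activation domain, to the *Sox1* promoter. The libraries labelled NSC came from unsorted neuroepithelial cells after neural induction of embryonic stem cells, and those labelled NR from neural rosettes sorted for GFP. The lines with dCas9-VP64 were clonal, and the study's reporting summary states that replicates came from separate days and separate clones. Whether the NPC libraries carried dCas9-VP64, guides or selection is not given in the sources used here. The study's text describes sorting for the comparison of NPC(+) with NPC, which differs from the labels of NPC. If NPC were unsorted, as labelled, induction and sorting cannot be told apart. The comparison of NPC(+) with NPC addresses whether glial identity is lost when *Sox1* is activated. NSC and NR, which the study describes as early neural stem cells, were read beside them.

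Library totals ran from 3407066 counts in NPC(+) replicate 1 to 43095688 in NSC replicate 1, and NPC(+) was the shallowest group. Levels are given as CPM, counts scaled to a library total of 1000000. The targeted gene *Sox1* stood at 4.83, 6.00 and 5.43 CPM in NPC and at 20.3, 20.9 and 21.7 CPM in NPC(+). The library labelled NR replicate 1 had 4.62 CPM of *Sox1*, the level of NPC, against 20.0 and 19.2 CPM in the other two. In NSC and in NR, 5 of 5 markers of pluripotent cells and 5 of 5 of mesenchyme were higher than in NPC. Of all genes tested, 44.4% were higher in NSC and 45.6% in NR. Markers of pluripotent cells summed to 1326 to 2505 CPM in the libraries labelled NR and to 43.2 to 130 CPM in NSC. They summed to at most 9.01 CPM in NPC and NPC(+). Markers of mesenchyme summed to 1271 to 6038 CPM in NR and to 800 to 2821 CPM in NSC. Their sums in NPC and NPC(+) were 15.7 to 33.7 CPM. Values of NSC and NR below come from libraries that hold these markers, whose part in them was not tested. In bulk RNA fewer cells of a type and less RNA per cell cannot be told apart.

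In NPC the 10 genes summed to 4018 to 4418 CPM, of which *Fabp7*, *Slc1a3* and *Aldoc* together made up 95.4% to 95.7%. Per kilobase of exon the mean levels in NPC were 595 CPM for *Fabp7*, 305 for *Slc1a3* and 196 for *Aldoc*. *Glul*, *S100b* and *Gja1* followed with 18.4, 10.4 and 9.89 CPM per kilobase. Markers of maturing astrocytes thus differed in level, since *S100b* stood above 4 others on the same scale, with 0.532 for *Gfap*, 0.373 for *Slc1a2*, 0.146 for *Aldh1l1* and 0.00319 for *Aqp4*. Of 32 further astrocyte markers, *Dbi* was highest at 495 CPM per kilobase. It was followed by *Cst3* at 212, *Mfge8* at 151, *Sparcl1* at 124, *Tnc* at 117.5 and *Mlc1* at 101. The list was uneven, since 7 of the 32 had at most 3 counts in every NPC library, 4 of them 0 counts. The NPC libraries held *Fabp7* and *Slc1a3* at the highest levels of the 10 genes and *Aqp4*, which marks the endfeet of astrocytes, at 1, 0 and 0 counts. In NPC(+) the 10 genes summed to 2020 to 2111 CPM, in NSC to 691 to 936 CPM and in NR to 349 to 476 CPM.

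NPC(+) had lower *Fabp7*, *Slc1a3* and *Aldoc* than NPC, higher *Aldh1l1* and *Aqp4* on few counts, and no call for *Slc1a2*, *Gfap*, *S100b*, *Glul* and *Gja1*. Of the 10 genes, 3 were lower and 2 higher at an adjusted p under 0.1 in edgeR's quasi-likelihood test. The study used the same false discovery rate with a Wald test. It also required a change above 4-fold, which was not required here. Over all 17003 genes tested 22.7% were lower and 21.6% higher in this comparison. The median log2 fold change was 0.06 over the 10 genes and 0 over all genes tested. Libraries of NPC(+) and NPC did not overlap in 4 of the 10 genes and in 52.7% of all genes. Lack of overlap was common elsewhere too. NPC did not overlap NSC in 77.3% of all genes and NR in 77.8%, and NPC(+) did not in 74.3% and 75.9%. The share of counts from mitochondrial genes moved with the groups, at 1.17% to 1.29% in NPC and 1.56% to 1.67% in NPC(+), and at 0.429% to 0.555% in NSC and NR, and its part in these differences was not tested.

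**Figure D1:**
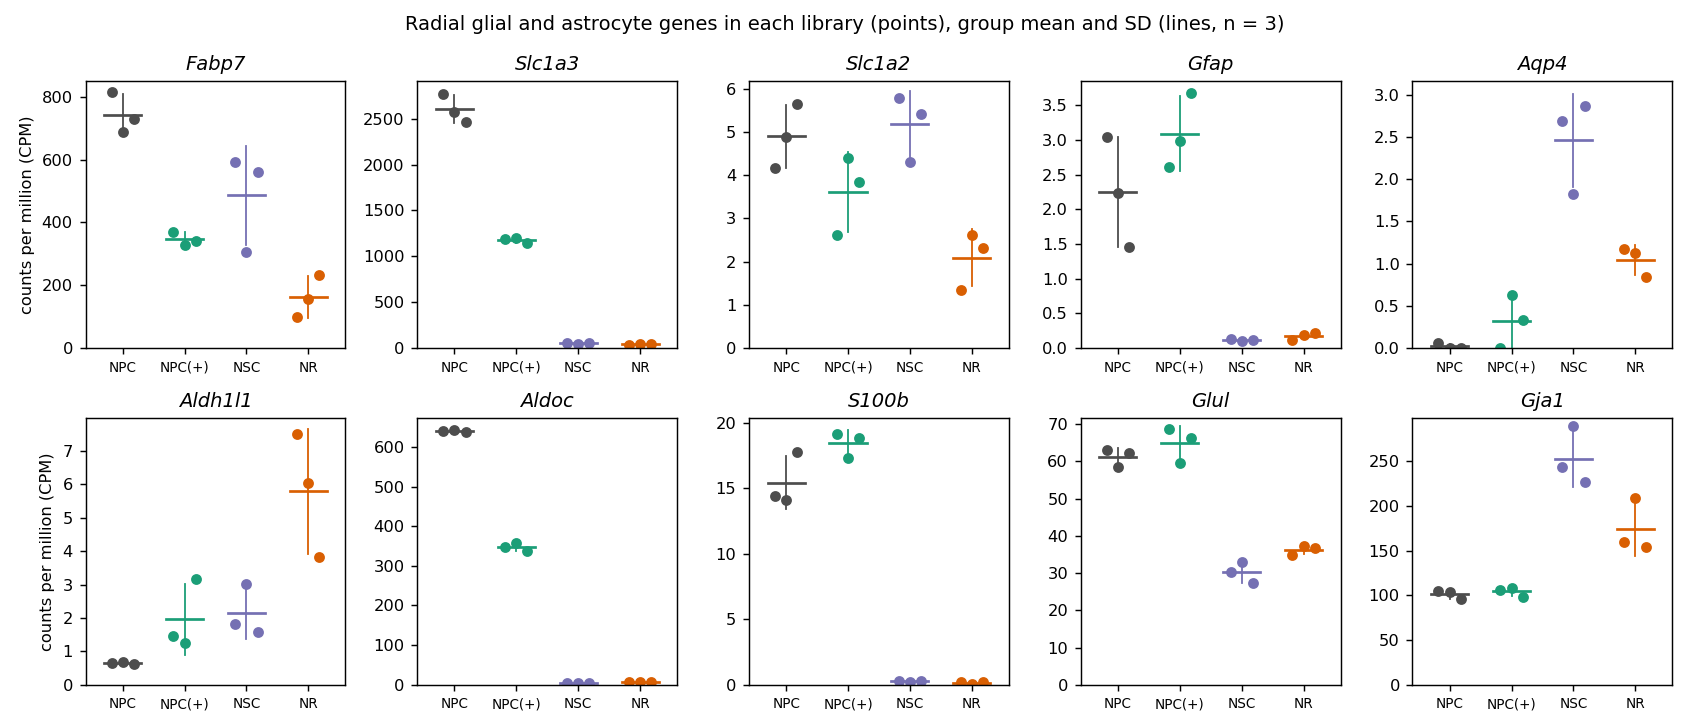
Levels in CPM (vertical axes, linear, each from 0) of the 10 genes in the 12 libraries, by group (horizontal axes). Points are libraries, horizontal lines group means and vertical lines 1 SD either side of the mean with n = 3, drawn no lower than 0. *Slc1a3* lay between 2468 and 2774 CPM in NPC, between 1147 and 1205 CPM in NPC(+) and at most at 54.0 CPM in every library labelled NSC or NR.

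*Fabp7* (chr10:57784881-57788450, plus strand, GRCm38) encodes the brain fatty acid-binding protein. Its level was 814, 687 and 729 CPM in NPC and 371, 328 and 341 CPM in NPC(+). All 3 NPC(+) libraries lay below all 3 NPC libraries. The log2 fold change was -1.10 (standard error 0.27, edgeR adjusted p = 0.00485). In NSC *Fabp7* stood at 592, 306 and 562 CPM, with replicate 2 apart from the other two, and in NR at 97.6, 157 and 231 CPM. NPC(+) therefore overlapped NSC in *Fabp7*, and their difference did not pass (log2 -0.49, 95% interval -1.06 to 0.08, edgeR adjusted p = 0.114). It passed in 5 of 14 alternatives, among them the fit with the replicate number as a block (log2 -0.46, adjusted p = 0.0926) and the fit without NSC replicate 2 (log2 -0.72, adjusted p = 0.0137). NSC was lower than NPC in *Fabp7* by 0.61 on the log2 scale (edgeR adjusted p = 0.0489), a call that was lost without NSC replicate 2 (log2 -0.37, adjusted p = 0.168) and without NPC replicate 1 (log2 -0.56, adjusted p = 0.127).

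*Slc1a3* (chr15:8634124-8710764, minus strand) encodes GLAST, the glutamate transporter of radial glia. It was read at 2774, 2571 and 2468 CPM in NPC and at 1192, 1205 and 1147 CPM in NPC(+). The groups did not overlap, and the log2 fold change was -1.14 (standard error 0.09, edgeR adjusted p = 3.70e-07). NSC held 53.9, 49.4 and 54.0 CPM and NR 39.2, 47.4 and 40.3 CPM. NPC(+) thus stayed 22.5-fold above NSC and 27.9-fold above NR (edgeR adjusted p = 7.29e-13 and 6.30e-13), with every NPC(+) library above every library of both groups.

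*Aldoc* (chr11:78322968-78327781, plus strand) encodes aldolase C, the brain form of a glycolytic enzyme. The levels were 640, 642 and 638 CPM in NPC and 347, 358 and 337 CPM in NPC(+), with a log2 fold change of -0.88 (standard error 0.08, edgeR adjusted p = 1.65e-06). In NSC *Aldoc* was at 5.01, 3.90 and 4.82 CPM and in NR at 6.65, 6.13 and 6.24 CPM. Each group was clear of the others, in the order NPC, NPC(+), NR, NSC, and NPC(+) was 75.3-fold above NSC. The falls of *Fabp7*, *Slc1a3* and *Aldoc* in NPC(+) held in all 14 alternative analyses run for each of them, with log2 fold changes from -1.17 to -1.0, from -1.18 to -1.06 and from -0.91 to -0.81.

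The promoters of the 3 genes that fell are shown with that of *Gfap*, which did not pass, since all 4 are read as glial genes and their upstream sequences can be set side by side. Each is the 250 bases before a start site in RefSeq on GRCm38.p6, printed 5′ to 3′ in the direction of the gene. For *Slc1a3* the RefSeq start lies outside the GENCODE span given above and the bases after it were not found in a GENCODE transcript of the gene, unlike those of the other 3 starts. Capitals mark matches, on either strand, to the words TTCNNNGAA (bound by STAT factors), TTGGCA (part of the NFI site) or TGGGAA (RBPJ, the factor of Notch signalling). The SOX words ACAAAG and ACAATG had no match in these windows. The windows are chr10:57784673-57784922 (plus) for *Fabp7*, chr15:8710808-8711057 (minus) for *Slc1a3*, chr11:78322823-78323072 (plus) for the first start of *Aldoc* and chr11:102897201-102897450 (minus) for *Gfap*.
Fabp7: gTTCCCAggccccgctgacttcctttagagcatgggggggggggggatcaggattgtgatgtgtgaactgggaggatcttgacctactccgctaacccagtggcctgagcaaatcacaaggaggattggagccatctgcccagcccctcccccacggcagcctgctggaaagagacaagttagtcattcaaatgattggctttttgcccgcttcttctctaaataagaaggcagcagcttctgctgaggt
Slc1a3: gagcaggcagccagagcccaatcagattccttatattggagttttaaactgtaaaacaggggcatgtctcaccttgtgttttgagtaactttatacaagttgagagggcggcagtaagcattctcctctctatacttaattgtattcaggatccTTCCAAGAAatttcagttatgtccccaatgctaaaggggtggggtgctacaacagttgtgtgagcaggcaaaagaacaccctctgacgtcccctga
Aldoc: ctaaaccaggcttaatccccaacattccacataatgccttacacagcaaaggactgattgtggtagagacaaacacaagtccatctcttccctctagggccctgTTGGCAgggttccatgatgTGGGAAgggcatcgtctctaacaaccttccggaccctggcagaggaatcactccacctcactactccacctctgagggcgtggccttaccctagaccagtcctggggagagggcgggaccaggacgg
Gfap: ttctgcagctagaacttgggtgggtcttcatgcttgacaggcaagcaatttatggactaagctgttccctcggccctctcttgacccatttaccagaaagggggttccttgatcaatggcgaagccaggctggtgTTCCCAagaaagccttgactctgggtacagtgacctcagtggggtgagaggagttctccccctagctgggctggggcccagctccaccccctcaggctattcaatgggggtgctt

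Positions are counted back from the start site and give the first base of a match. The *Fabp7* window held the RBPJ word at -249 and the *Gfap* window at -115, both on the reverse strand. The *Slc1a3* window held the STAT word at -96. *Aldoc* held the NFI word at -146 and the RBPJ word at -127 in the window shown, and 2 STAT words and 1 RBPJ word in the window of its second start. Among all 32536 windows of this length, 7.04% held the STAT word, 12.3% the NFI word and 21.6% the RBPJ word, and 16.5% and 10.5% the SOX words. The RBPJ word was also in the windows of *Aldh1l1* and *S100b*, and the NFI word in that of *S100b*. The windows of *Slc1a2*, *Glul* and *Gja1* held none of the 5 words. That of *Slc1a2* lies inside the GENCODE span of the gene, and the bases after its start were not found in a GENCODE transcript. These matches describe letters and do not show binding.

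Among the other metabolic genes, *Glul* (chr1:153899944-153909723, plus strand) encodes glutamine synthetase, which turns glutamate taken up by glia into glutamine. *Glul* was at 63.0, 58.5 and 62.2 CPM in NPC and at 68.6, 59.5 and 66.4 CPM in NPC(+). These libraries overlapped, and the log2 fold change was 0.08 with a 95% interval from -0.13 to 0.29 (edgeR adjusted p = 0.568). NSC with 30.4, 32.9 and 27.4 CPM and NR with 34.9, 37.4 and 36.7 CPM lay below every NPC and NPC(+) library. *Glul* shares 116 exon bases with *Teddm2* on the opposite strand, which had at most 31 counts in a library.

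*Aldh1l1* (chr6:90486427-90600203, plus strand) encodes a cytosolic enzyme of folate metabolism and is a common marker of astrocytes. It stood at 0.656, 0.698 and 0.626 CPM in NPC and at 1.45, 1.26 and 3.17 CPM in NPC(+), from summed counts of 19 and 32. The groups did not overlap, as in 52.7% of all genes tested, and the log2 fold change was 1.59 (standard error 0.51, edgeR adjusted p = 0.0254). Without NPC(+) replicate 3, the highest library, it was 1.00 and did not pass (adjusted p = 0.215). NSC had 1.83, 3.00 and 1.58 CPM, overlapping NPC(+), and NR had 7.51, 6.03 and 3.82 CPM, above every other library.

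*Slc1a2* (chr2:102658659-102790784, plus strand) encodes GLT-1, the main glutamate transporter of mature astrocytes. Its level was 4.18, 4.88 and 5.63 CPM in NPC and 2.61, 4.40 and 3.84 CPM in NPC(+). It was 5.79, 4.32 and 5.43 CPM in NSC and 1.35, 2.61 and 2.30 CPM in NR. NPC, NPC(+) and NSC overlapped, and NPC(+) differed from NPC by a log2 fold change of -0.38 (95% interval -1.02 to 0.26, edgeR adjusted p = 0.360). NR was lower than NPC by 1.17 on the log2 scale (adjusted p = 0.00141).

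*Gfap* (chr11:102887336-102900912, minus strand) encodes the intermediate filament protein of astrocytes. It was low in progenitors, with 3.04, 2.23 and 1.46 CPM in NPC and 2.61, 2.98 and 3.67 CPM in NPC(+). These libraries overlapped (log2 fold change 0.40, 95% interval -0.29 to 1.09, edgeR adjusted p = 0.407). NSC had 0.134, 0.104 and 0.122 CPM and NR 0.123, 0.194 and 0.225 CPM, or 13 and 16 summed counts. NSC and NR overlapped, and their difference did not pass (adjusted p = 0.304). NPC(+) was 24.5-fold above NSC and 15.9-fold above NR (adjusted p = 1.52e-07 and 4.78e-07).

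*S100b* (chr10:76253853-76261159, plus strand) encodes a calcium-binding protein of astrocytes. It was at 14.4, 14.1 and 17.7 CPM in NPC and at 19.1, 17.3 and 18.9 CPM in NPC(+). Only NPC replicate 3 reached the range of NPC(+). The log2 fold change was 0.26 (95% interval -0.19 to 0.72, edgeR adjusted p = 0.371), and it passed when only these 2 groups were fitted (0.33, adjusted p = 0.0444). In NSC *S100b* was at 0.268, 0.207 and 0.305 CPM and in NR at 0.246, 0.0645 and 0.197 CPM. NSC and NR overlapped (log2 fold change -0.71 in NR, adjusted p = 0.180), and after thinning to the smallest library the difference turned and was called higher in NR (3.15, adjusted p = 0.0780). NPC(+) was 68.5-fold above NSC (adjusted p = 5.19e-10).

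*Gja1* (chr10:56377330-56402513, plus strand) encodes connexin 43, which forms gap junctions between astrocytes and between neural progenitors. It was at 104, 104 and 95.6 CPM in NPC and at 106, 109 and 98.7 CPM in NPC(+). The groups overlapped, with a log2 fold change of 0.04 (95% interval -0.23 to 0.31, edgeR adjusted p = 0.847). Unlike *Slc1a3*, *Aldoc*, *S100b*, *Gfap* and *Glul*, *Gja1* was highest in NSC, with 244, 289 and 227 CPM, followed by NR with 160, 209 and 154 CPM. Each NSC and NR library was above each NPC and NPC(+) library.

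*Aqp4* encodes the water channel of astrocyte endfeet. It had 1, 0 and 0 counts in NPC and 0, 4 and 2 counts in NPC(+). Libraries labelled NSC had 120, 53 and 94 counts and those labelled NR had 19, 35 and 30. NPC and NPC(+) overlapped at 0. The ratio of summed counts, scaled by library size, was 10.9 for NPC(+) against NPC, with an exact 95% interval from 1.32 to 501 that covers counting error only. edgeR called the difference (adjusted p = 0.0304), and the call was lost without NPC(+) replicate 2 (adjusted p = 0.256). Scaled by depth, *Aqp4* reached 2.46 ± 0.55 CPM in NSC and 1.05 ± 0.18 CPM in NR (SD, n = 3).

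**Figure D2:**
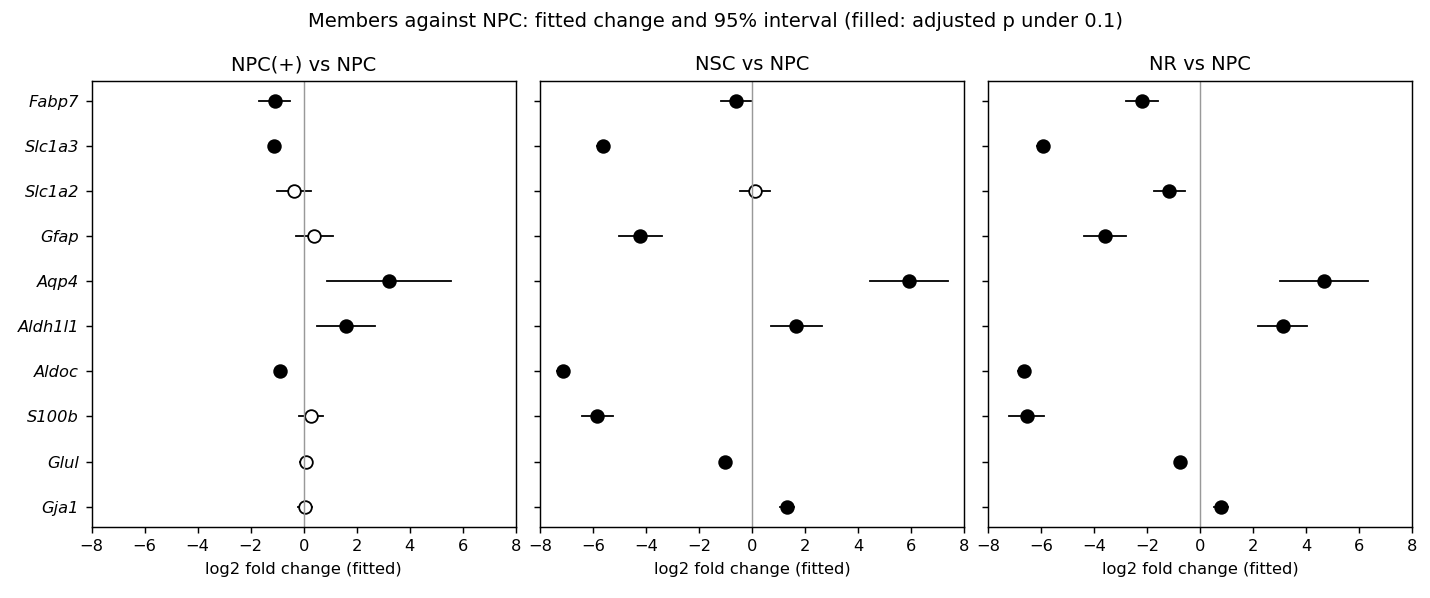
Fitted log2 fold changes against NPC (horizontal axes) of the 10 genes in NPC(+), NSC and NR, with 95% intervals as lines and filled points at an adjusted p under 0.1. *Slc1a3*, *Aldoc*, *S100b* and *Gfap* lay at -3.60 or lower in NSC and NR, whereas in NPC(+) *Slc1a3* and *Aldoc* were at -1.14 and -0.88, and *S100b* and *Gfap* at 0.26 and 0.40.

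In NSC against NPC, 6 of the 10 genes were lower and 3 higher, where 33.7% and 44.4% of all genes tested were lower and higher. The log2 fold changes were -7.12 for *Aldoc*, -5.84 for *S100b*, -5.63 for *Slc1a3* and -4.22 for *Gfap*. The median was -0.81 over the 10 genes and 0.20 over all genes. In NR against NPC, 7 were lower and 3 higher, against 34.1% and 45.6% of all genes, with a median of -1.68 beside 0.19. The 3 higher genes were *Aqp4*, *Aldh1l1* and *Gja1* in both comparisons, which share the NPC libraries. The same 10 genes were called in NR against NPC without NR replicate 1, the library with *Sox1* at the level of NPC.

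NPC(+) against NSC had 5 of the 10 genes higher and 2 lower, beside 31.4% and 41.8% of all genes. The 5 were *Slc1a3*, *Gfap*, *Aldoc*, *S100b* and *Glul*, and the 2 were *Aqp4* and *Gja1*. NPC(+) against NR had 7 higher and 3 lower, beside 32% and 44.4% of all genes. *Aqp4*, *Aldh1l1* and *Gja1* were the lower genes. Between NR and NSC, 3 genes were higher in NR and 5 lower, beside 30% and 26.6% of all genes. *Aldh1l1*, *Aldoc* and *Glul* were higher in NR, and *Fabp7*, *Slc1a2*, *Aqp4*, *Gja1* and *Slc1a3* were lower, with log2 fold changes between -1.58 and 1.43. The call of *Glul* was lost without NSC replicate 3 (0.17, edgeR adjusted p = 0.183). The call of *Slc1a2* between NPC(+) and NR (0.80) was lost without NPC(+) replicate 2 (0.62, adjusted p = 0.132).

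Other members of the gene families were read beside the 10 genes. The fatty acid-binding protein *Fabp5* rose in NPC(+), from 188, 146 and 165 CPM in NPC to 331, 295 and 307 CPM (log2 fold change 0.90, edgeR adjusted p = 0.000512), while *Fabp7* fell. Per kilobase of exon *Fabp7* was 12.8 ± 0.55 times *Fabp5* in NPC and 3.18 ± 0.01 times in NPC(+) (SD, n = 3). *Aldoa*, the aldolase of most tissues, was at 554, 502 and 474 CPM in NPC and at 623, 611 and 614 CPM in NPC(+) (0.27, adjusted p = 0.0261). The ratio of *Aldoc* to *Aldoa* per kilobase was 1.12 ± 0.09 in NPC and 0.503 ± 0.017 in NPC(+). It was 0.00797 ± 0.00115 in NSC, beside 0.00629 ± 0.00046 in NR. *Aldh1l2*, the mitochondrial relative of *Aldh1l1*, fell from 400, 425 and 401 CPM in NPC to 90.0, 91.5 and 86.4 CPM in NPC(+) (-2.19, adjusted p = 0.000191). In NPC it was 373 ± 11 times *Aldh1l1* per kilobase and in NR 1.66 ± 1.1 times. How reads shared by similar family members were assigned is not given in the sources used here.

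**Figure D3:**
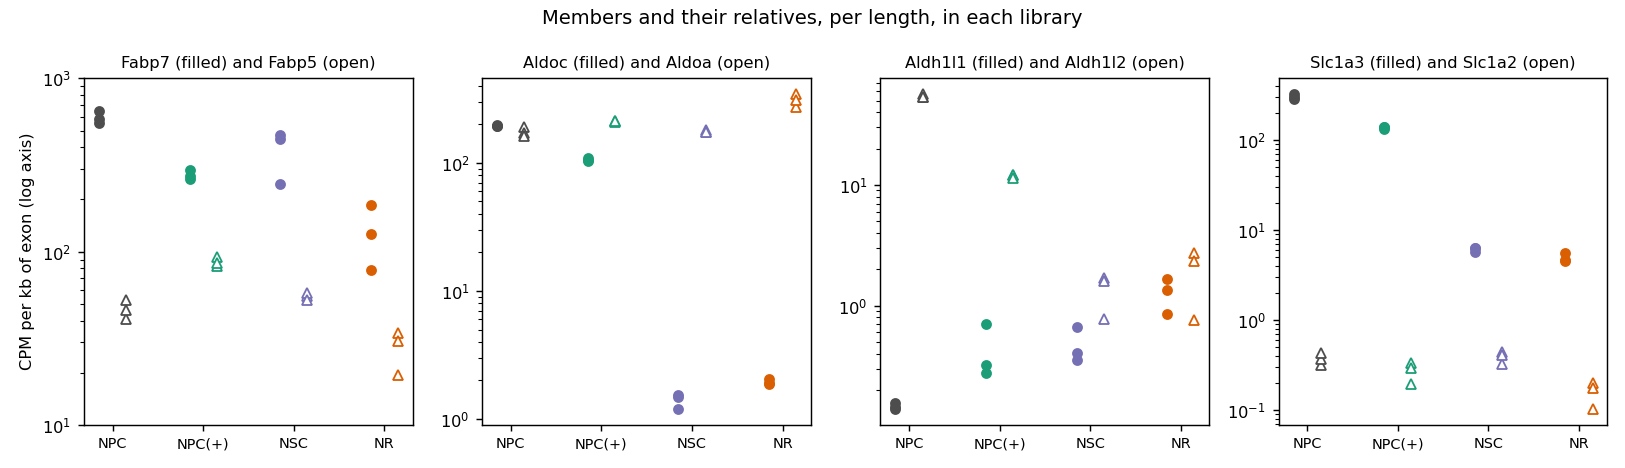
Levels per kilobase of exon (vertical axes, logarithmic, CPM per kilobase) in each library of 4 members (filled circles) and a relative of each (open triangles), by group. The circle of *Aldoc* is near the triangle of *Aldoa* in NPC, at a ratio of 1.12, and far below it in NSC and NR.

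Among 10 further genes that move or convert glutamate and glutamine, 9 were tested. Beside 22.7% of all genes lower and 21.6% higher in NPC(+), 3 of the 9 fell and none rose. These were *Slc1a4*, a carrier of neutral amino acids (-1.40, edgeR adjusted p = 7.43e-09), *Slc1a5*, a glutamine carrier (-0.92, adjusted p = 5.85e-05), and *Glud1*, glutamate dehydrogenase (-0.58, adjusted p = 0.000433). *Slc1a3* fell with them, whereas the glutamine carrier *Slc38a3* was at -0.06 (adjusted p = 0.718). Of 5 connexins tested, *Gjc1* (1.52, adjusted p = 5.89e-08) and *Gja5* (3.09, adjusted p = 5.33e-05) rose beside *Gja1* at 0.04. Of 6 S100 genes tested, *S100a11* rose from 3.76, 3.07 and 4.17 CPM in NPC to 168, 162 and 171 CPM in NPC(+) (5.51, adjusted p = 2.40e-08), and *S100a10* rose by 1.89 (adjusted p = 1.86e-05). Of 6 aquaporins tested, *Aqp1*, *Aqp9* and *Aqp11* rose, and *Aqp8* was called lower, with 39, 14 and 13 counts in NPC and 0 in each NPC(+) library. Among 7 intermediate filament genes *Prph* fell (-2.38, adjusted p = 0.000204) and none rose.

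A list of 32 further genes used as astrocyte markers was read in the same way. Beside 22.7% of all genes lower and 21.6% higher in NPC(+) against NPC, 12 of the 26 tested fell, 7 rose and 7 did not pass. Their median was -0.54. The 4 falls with the smallest p were *Ttyh1*, a chloride channel (-2.87, edgeR adjusted p = 9.89e-06), *Tnc*, an extracellular matrix protein of radial glia and astrocytes (-2.11, adjusted p = 1.39e-05), *Cbs*, an enzyme of cysteine synthesis (-1.27, adjusted p = 1.89e-05), and *Fgfr3*, a receptor for fibroblast growth factors (-2.77, adjusted p = 2.51e-05). *Fgfr3* was at 120, 134 and 128 CPM in NPC and at 19.4, 20.3 and 16.5 CPM in NPC(+). The 4 rises with the smallest p were *Clu*, a secreted chaperone (2.19, adjusted p = 0.000433), *Cst3*, a protease inhibitor (0.49, adjusted p = 0.00104), *Kcnj10*, a potassium channel (3.24, adjusted p = 0.00114), and *Agt*, angiotensinogen (1.78, adjusted p = 0.00385). *Kcnj10* was at 0.119, 0.140 and 0.835 CPM in NPC and at 2.03, 2.98 and 2.33 CPM in NPC(+), so both groups were low. In NSC against NPC 18 of the 26 were lower and 7 higher (median -2.14), and in NR 18 were lower and 8 higher (median -2.19). Of all genes, 33.7% were lower and 44.4% higher in NSC, and 34.1% and 45.6% in NR. *Gjb6*, the connexin 30 gene of astrocytes, had 0 counts in every NPC and NPC(+) library. The list summed to 4482 to 4734 CPM in NPC and 3335 to 3414 CPM in NPC(+), whereas NSC had 896 to 939 CPM and NR 1152 to 1263 CPM.

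Of 14 regulators of gliogenesis, 5 rose in NPC(+), 3 fell and 6 did not pass (median 0.22). Over all genes tested, 21.6% rose and 22.7% fell. The inhibitors of bHLH factors *Id3*, *Id4*, *Id1* and *Id2* rose by 2.56, 1.40, 0.91 and 0.65 on the log2 scale, with edgeR adjusted p from 2.73e-08 to 0.00663. *Id3* went from 46.0, 40.2 and 43.8 CPM in NPC to 258, 247 and 263 CPM in NPC(+). The fifth, *Nfia*, which drives the onset of gliogenesis, rose from 258, 263 and 261 CPM to 369, 396 and 423 CPM (0.60, adjusted p = 0.0632), and was added to the named genes after its values were seen. *Sox9*, a factor needed for gliogenesis, fell from 202, 240 and 262 CPM to 93.8, 92.2 and 94.6 CPM (-1.32, adjusted p = 0.00189). *Stat3*, which activates astrocyte genes, fell by 0.36 (adjusted p = 0.0195) and *Zbtb20* by 0.59 (adjusted p = 0.0571). *Nfib* and *Nfix*, relatives of *Nfia*, were at -0.37 and -0.47 and did not pass.

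**Figure D4:**
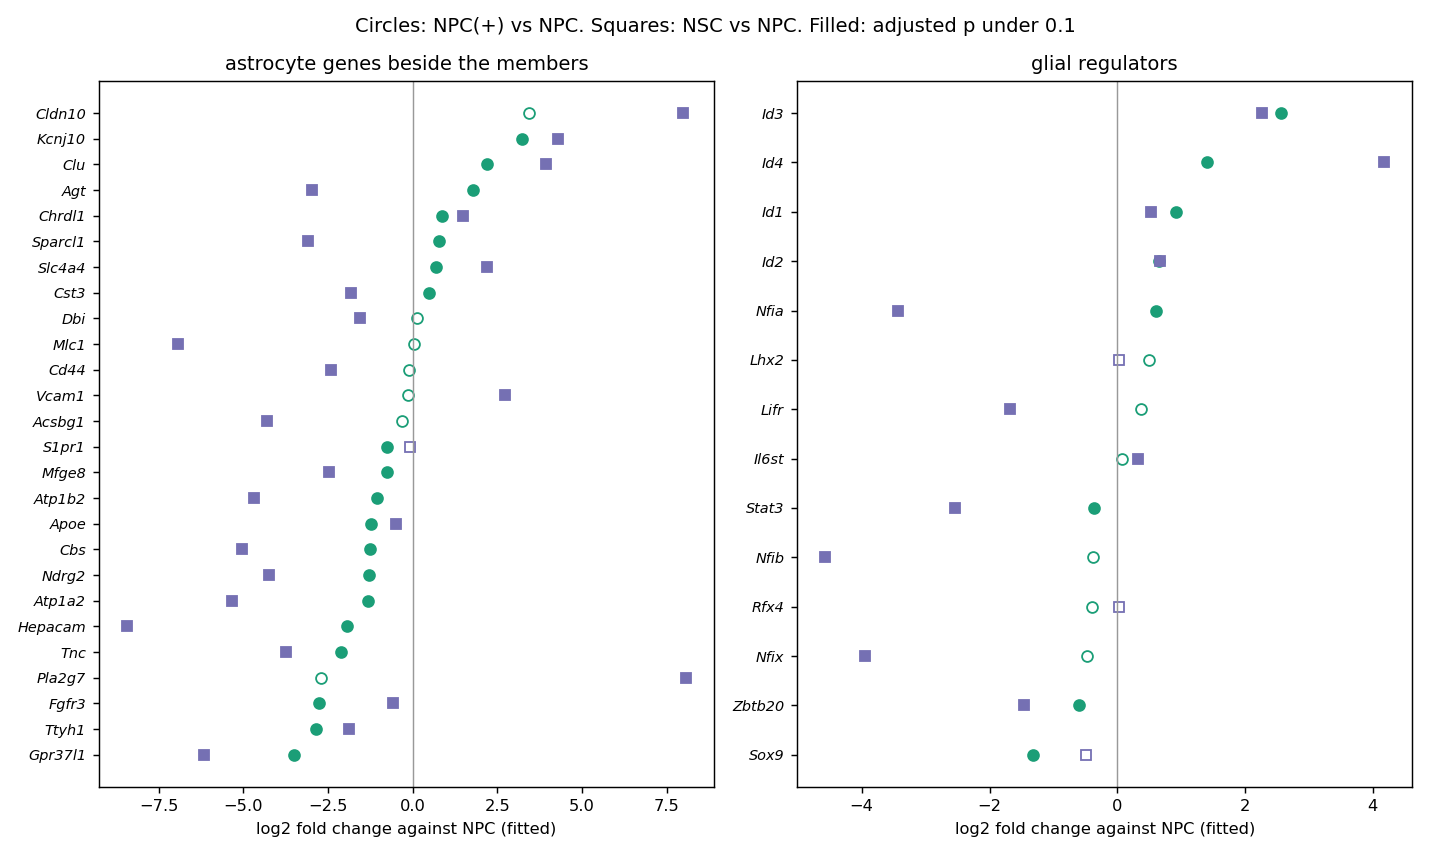
Fitted log2 fold changes against NPC (horizontal axes) of the 26 tested astrocyte genes beside the 10 (left) and of the 14 glial regulators (right), one gene per row, for NPC(+) (circles) and NSC (squares), filled at an adjusted p under 0.1. *Mlc1* lay at 0.03 in NPC(+) and at -6.94 in NSC, and *Id3* at 2.56 and 2.26.

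Of 13 further genes of radial glia and neural progenitors, 4 rose in NPC(+), 4 fell and 5 did not pass (median 0.24). Over all genes tested, 21.6% rose and 22.7% fell. *Mki67*, a marker of cycling cells (0.64, edgeR adjusted p = 0.000264), *Hopx* (1.92, adjusted p = 0.000322), *Nes*, the intermediate filament nestin (1.34, adjusted p = 0.00246), and *Cdh2*, N-cadherin (1.11, adjusted p = 0.00347), rose. *Sox2*, a transcription factor of neural progenitors (-1.80, adjusted p = 2.11e-08), *Ptprz1*, a receptor phosphatase (-1.61, adjusted p = 0.000514), *Pax6* (-0.78, adjusted p = 0.0105) and *Notch1* (-0.78, adjusted p = 0.0290) fell. *Sox2* stood at 254, 308 and 291 CPM in NPC and at 81.1, 76.8 and 86.6 CPM in NPC(+).

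Markers of other cell types were read beside these changes, with 21.6% of all genes higher and 22.7% lower in NPC(+). Of 7 markers of the oligodendrocyte lineage, *Olig1* and *Olig2* fell in NPC(+) and none rose. *Mbp* was called lower too, on 7, 1 and 3 counts in NPC and 1, 0 and 0 in NPC(+), in libraries whose levels overlapped (edgeR adjusted p = 0.0687). The summed level of the list went from 2404 to 2533 CPM in NPC to 1628 to 1761 CPM in NPC(+). *Olig1* and *Olig2* made up most of it, and *Sox10* had 0 counts in all 6 libraries. Of 7 neuronal markers *Dcx* rose (2.78, edgeR adjusted p = 0.00311) and *Syt1* fell (-1.25, adjusted p = 0.000175), with sums of 490 to 516 CPM in NPC and 421 to 437 CPM in NPC(+). Markers of microglia summed to at most 2.32 CPM, of endothelium to at most 2.51 CPM and of ependyma to at most 2.67 CPM in NPC and NPC(+). Of these, 1 gene of each list rose in NPC(+), namely *Tmem119*, *Tek* and *Foxj1*. *Cx3cr1* of microglia, *Cdh5* of endothelium, and *Tmem212* and *Ccdc153* of ependyma had 0 counts in every NPC and NPC(+) library. The oligodendrocyte list summed to 66.2 to 84.7 CPM in NSC and 49.0 to 53.9 CPM in NR. In the same order the neuronal list summed to 445 to 594 CPM and 288 to 414 CPM. The endothelial list summed to 5.42 to 9.84 CPM and 73.0 to 132 CPM. The neuronal sums hold changes in both directions against NPC. In NSC and in NR *Tubb3*, *Dcx*, *Snap25* and *Stmn2* were higher, and *Map2* and *Syt1* lower. The median log2 fold change of the 7 was 5.52 in NSC and 4.64 in NR. *Map2* had means of 464 CPM in NPC, 89.9 CPM in NSC and 37.9 CPM in NR. In NSC and NR microglial markers summed to at most 27.5 CPM and ependymal markers to at most 4.37 CPM. *Tmem119* made up most of the microglial sum, with means of 15.6 CPM in NSC and 22.9 CPM in NR. The other microglial markers had means of at most 0.378 CPM there. *Pecam1* made up most of the endothelial sum in NR, with a mean of 91.2 CPM, beside at most 6.32 CPM for the others. Whether the falls of *Olig1* and *Olig2* are tied to those of *Fabp7*, *Slc1a3* and *Aldoc* was not tested.

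**Figure D5:**
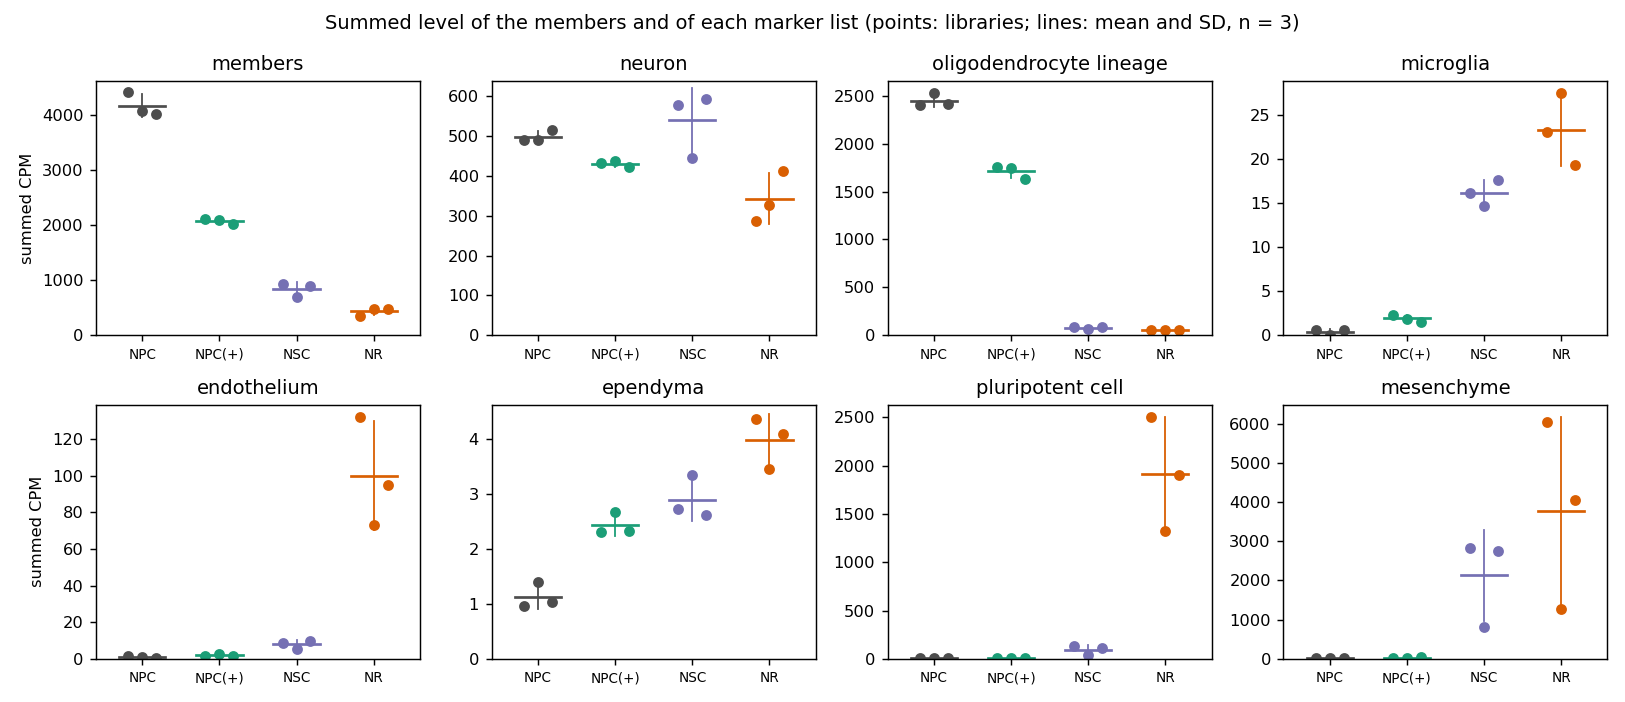
Summed levels in CPM (vertical axes, linear, each from 0) of the 10 genes and of 7 marker lists in the 12 libraries, by group. Points are libraries, horizontal lines means and vertical lines 1 SD either side with n = 3, drawn no lower than 0. The 10 genes summed to 2020 to 2111 CPM in NPC(+). Pluripotent markers were highest in NR, and mesenchymal markers were high in both NSC and NR.

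The genes whose levels followed each member most closely were sought among 9655 genes with a mean of at least 3 log2 CPM, by Pearson's r of log2 CPM over the 12 libraries. They are a description, since the 12 libraries fall into 4 groups. They also share the split of NPC and NPC(+) from NSC and NR, which differ in depth too. *Slc1a3* was most like *Skap2* (r = 0.997) and *Sft2d2* (0.997), and *Aldoc* was most like *Sec11c* (0.999) and *Cox14* (0.999). *Fabp7* was most like *C130071C03Rik* (0.979) and *Phyhipl* (0.979). *S100b* was most like *Kansl1l* (0.998) and *Igsf21* (0.996), *Gfap* most like *Ggh* (0.992) and *Med30* (0.991), and *Glul* most like *Timm13* (0.991) and *Cox6b1* (0.990). *Gja1* was most like *Vps36* (0.993) and *Impact* (0.990), and *Aqp4* most like *Scyl2* (0.985) and *Zfp799* (0.981). *Slc1a2* and *Aldh1l1* had the loosest matches, *Fam53b* (0.965) and *Satb1* (0.951), and *Cars2* (0.954) and *Wdr18* (0.954). Among the members themselves, *Slc1a3* and *Aldoc* followed each other with r = 0.994 and *Aldoc* and *S100b* with r = 0.983, whereas *Slc1a3* and *Gja1* had r = -0.885.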

How the data were processed

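The deposited values are raw counts that the authors made per Ensembl gene for the 12 libraries, after PicoPure extraction and SMART-Seq amplification. The submitters' processing notes name STAR 2.6, RSEM 1.1.14 and the build mm10. Annotation, strand setting and multi-mapping rules are not given in the sources used here, and the whole numbers may be rounded estimates. Symbols, positions and exon lengths came from the GENCODE annotation of GRCm38, and promoters from RefSeq (9 of the 10 genes matched).

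Counts were scaled by TMM, filtered by filterByExpr and tested with glmQLFit and glmQLFTest of edgeR 4.0.16 (R 4.3.3) in 1 fit of 12 libraries, with Benjamini-Hochberg adjustment over 17003 genes. The prior count was 0.125 for fold changes. Alternatives were DESeq2 1.42.0, other scalings, filters and thresholds, the replicate number as a block, fits of 2 groups, thinning and omission of each library. Intervals and CPM came from edgeR, count ratios from scipy 1.17.1 and figures from matplotlib 3.10.9. The fit was tested on simulated data. The text names all members, up to 4 genes with the smallest p on each side, and relatives of members. Some other genes, such as *Sparcl1*, *Mfge8*, *Mlc1* and *Dbi*, were named outside this rule. Members and lists were chosen with earlier results of these data known. Same-numbered libraries of NR and NSC deviated together (r = 0.229, 0.490 and 0.296), and the block changed no call there. Correlations of differently numbered libraries were not computed. Whether same-numbered libraries share a day or clone is not given in the sources used here, so pairing was not established.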

Additional observations from a re-analysis of the deposited data

How the results depend on the processing

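Of 60 results for a gene in a comparison, 47 kept their direction and their side of the threshold in every alternative run, among them *Fabp7*, *Slc1a3* and *Aldoc* in NPC(+) against NPC. Calls of members stayed within 1.5 times in 83 of 90 alternatives. Requiring 10 counts in every library left 5 genes to test, of which 3 were called in NPC(+) against NPC, 4 in NPC(+) against NSC and 5 in each of the other 4 comparisons. Of all 10608 genes kept by that filter, 3260 were higher and 3009 lower in NPC(+) against NPC, and 4282 and 4365 in NSC against NPC. The counts were 4339 and 4280 in NR against NPC and 3354 and 3317 in NR against NSC. They were 4227 and 4088 in NPC(+) against NSC and 4142 and 4168 in NPC(+) against NR. Thinning to the smallest library gave 5 calls in NR against NSC, where 3610 of all 13167 genes tested were higher and 3341 lower. Leaving out 1 library gave 4 to 5 calls in NPC(+) against NPC, 8 to 9 in NSC against NPC, 10 in NR against NPC, 7 to 8 in NR against NSC and in NPC(+) against NSC, and 9 to 10 in NPC(+) against NR. Many of all genes were called in such runs too. Without NPC replicate 1, 3370 of 17509 were higher and 3164 lower in NPC(+) against NPC. Without NR replicate 1, 7610 of 17550 were higher and 5964 lower in NR against NPC, and 5547 and 7385 in NPC(+) against NR. Without NSC replicate 1, 7321 of 17498 were higher and 5577 lower in NSC against NPC. In the same run 4609 were higher and 4165 lower in NR against NSC, and 5224 and 6731 in NPC(+) against NSC. The replicate block left 59 of 60 results on their side of the threshold, and *Fabp7* in NPC(+) against NSC was called with it (-0.46). Outside NR against NSC the correlations of same-numbered libraries lay between -0.0472 and 0.0619. Directions turned, with no call before, for *Gja1* in NPC(+) against NPC without NPC replicate 3 (-0.0049 to 0.091 over omitted libraries), *Slc1a2* in NSC against NPC when thinned (-0.19) and without NPC replicate 1 (-0.028 to 0.22), *Aldh1l1* in NPC(+) against NSC without NPC(+) replicate 1 or 2 or NSC replicate 2 (-0.69 to 0.24), and *S100b* in NR against NSC when thinned (3.15), where it was called. The difference of *Glul* between NR and NSC was lost in 4 of 14 alternatives, and thinning ended the calls of *Slc1a2* in NR against NSC and in NPC(+) against NR and of *Aldoc* in NR against NSC. The cause of these changes was not tested, apart from the fewer genes and counts that filtering and thinning leave. Depth limits *Aqp4*, *Aldh1l1* and *Gfap*: 3 counts correspond to 0.475 to 0.881 CPM in NPC(+).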
